A study of Mus musculus with 21 samples.

Results

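Dbp and 5 genes of the circadian clock's output, namely Tef, Hlf, Nr1d1, Nr1d2 and Ciart, were followed by RNA sequencing through mouse colon and colon tumours. They are 6 of the 24062 genes in the deposited count table, taken by gene symbol, and all 6 were found and passed the filter on low counts. The genes were chosen from the measured values, with their levels in these libraries already known. Which contrast was used for that choice is not recorded, so every group level of these genes is treated as part of it. Their levels and fold changes, with standard errors, are therefore a description. A member is called where the fit across all genes put it past an adjusted p of 0.05, and each such count stands beside the share of all tested genes called. Because the choice may have used any of the contrasts, these calls, and those of other tools, describe the fit and support nothing, in every comparison and interaction below. Tests are read only for other genes of the clock, from lists that were also chosen with earlier results known.

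The study compared wild-type C57BL/6 mice with App NL-G-F mice on the same background, in which mutations known from Alzheimer's disease were placed into the mouse's own gene for the amyloid precursor protein (called knock-in here). Its title concerns how such mutations affect colorectal tumours in the 2 sexes. The 21 libraries form 7 groups of 3, which are wild-type male normal colon, wild-type male tumour, knock-in male normal colon, knock-in male tumour, wild-type female normal colon, wild-type female tumour and knock-in female normal colon. Tumours came from mice given AOM/DSS, that is, the carcinogen azoxymethane followed by dextran sulfate sodium, which damages the colon lining. Normal colon is labelled as untreated, whereas the design text speaks of normal tissue beside tumours, or of normal tissue where tumours did not form. Knock-in female tumours were not analysed here. The labels used here give neither age nor the hour at which tissue was taken. They do not say whether the libraries of a group are separate animals, so p-values measure only the spread between these libraries, which may be technical.

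The clock in most cells is a loop in which the BMAL1 (Arntl) and CLOCK (or NPAS2) proteins bind E-box sequences and switch on their own repressors, the Per and Cry genes. The same E-box drive reaches Dbp, Nr1d1, Nr1d2 and Ciart, whose transcripts normally swing widely over the day and peak roughly opposite to Arntl. DBP, TEF and HLF are the PAR bZIP transcription factors, which bind D-box sequences and carry the rhythm to metabolic genes in liver, kidney and gut. REV-ERBα and REV-ERBβ, made by Nr1d1 and Nr1d2, are haem-binding nuclear receptors that repress Arntl, and CIART (also called CHRONO) represses the BMAL1 and CLOCK pair.

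The upstream sequences of Ciart and of 1 start of Tef are shown because these held perfect E-boxes, the element through which the clock loop acts on such genes. They come from RefSeq (GRCm38.p6), are read 5′ to 3′ on the strand of the gene, end before any GENCODE exon of the gene and have each CACGTG in capitals.
Ciart, chr3:95882252-95882478, minus strand: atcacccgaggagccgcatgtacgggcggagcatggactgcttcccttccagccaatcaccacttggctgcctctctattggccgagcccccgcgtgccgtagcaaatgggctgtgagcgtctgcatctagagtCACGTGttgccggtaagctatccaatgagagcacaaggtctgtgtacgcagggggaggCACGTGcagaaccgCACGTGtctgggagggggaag
Tef, chr15:81811164-81811413, plus strand: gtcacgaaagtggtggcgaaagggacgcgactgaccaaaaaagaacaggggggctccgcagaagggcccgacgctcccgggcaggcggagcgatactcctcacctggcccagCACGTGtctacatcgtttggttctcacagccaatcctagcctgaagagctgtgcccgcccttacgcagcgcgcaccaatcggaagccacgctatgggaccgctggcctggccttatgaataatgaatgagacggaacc

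In windows of 300 bases, from 250 before to 50 after each RefSeq start, Ciart held 3 copies of CACGTG, beginning at positions -116, -58 and -44 from the start. Tef held 1 copy in the window of each of its 2 RefSeq starts, at -127 and at -138. Of 32851 promoter windows of this length, 7.15% held CACGTG. The half-site to which the REV-ERB proteins bind, AGGTCA on either strand, occurred in Nr1d2 at -77 and in 16.3% of all windows. The D-box forms TTACGTAA and TTATGTAA, on either strand, were in 1.06% of all windows and in none of the windows of the 6 genes. No match to any of these letters was found in the windows of Dbp, Hlf and Nr1d1, which says nothing of sites elsewhere.

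In GENCODE M21 (GRCm38) the genes lie at chr7:45705088-45710203 on the plus strand (Dbp), chr15:81802421-81826863 plus (Tef), chr11:90336536-90390895 minus (Hlf), chr11:98767932-98775333 minus (Nr1d1), chr14:18204054-18239127 minus (Nr1d2) and chr3:95878503-95882251 minus (Ciart).

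Library totals ran from 3414123 counts, in wild-type male tumour replicate 2, to 26174008 counts, in wild-type female normal replicate 1. Levels are CPM, counts scaled to a common library size after TMM normalisation. The floor of 3 counts covers counting error only, whereas standard deviations and standard errors include the spread between libraries. Colon epithelium markers (Epcam, Cdh1, Vil1, Krt8 and Krt20) summed to between 4102 and 7952 CPM, with none of the 5 at 0 throughout a group. In the count table, 2 columns of the knock-in female normal group carry the same name, and they are called replicates a and b. Replicate b stood apart from replicates 1 and a of its group in Dbp, Tef, Hlf, Nr1d2 and Ciart, so the main values for that group are given with and without it. In Nr1d1 it did not, at 142 CPM beside 173 and 270.5 CPM in replicates 1 and a. The library numbers in the labels ran from 99 to 110 in wild-type and from 129 to 132 in knock-in male normal colon, and replicate 1 of knock-in female normal colon had number 138. In male tumours the numbers were 113, 116 and 117 in wild-type and 133, 136 and 154 in knock-in mice. In normal colon and in male tumours, genotype and this numbering cannot be told apart.

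Of the 6 genes, Dbp differed most between genotypes in normal colon. In normal colon of wild-type females it stood at 1.27, 1.67 and 2.32 CPM, whereas knock-in females had 61.5 CPM in replicate 1, 76.6 CPM in replicate a and 10.5 CPM in replicate b. In normal colon of males it stood at 3.45, 1.87 and 6.27 CPM in wild-type and at 17.9, 31.5 and 17.7 CPM in knock-in mice. All 6 knock-in normal libraries were above all 6 wild-type normal libraries, with replicate b of the knock-in females the lowest of the 6. In male tumours Dbp stood at 3.53, 4.95 and 3.41 CPM in wild-type and at 7.83, 14.0 and 6.46 CPM in knock-in mice, and wild-type female tumours had 2.31, 1.64 and 1.41 CPM. Over normal colon and tumours together, the lowest of the 9 knock-in libraries (6.46 CPM) was still above the highest of the 12 wild-type libraries (6.27 CPM), by a small margin. The share of all tested genes that separate the genotypes so, or in normal colon alone, was not computed. The separation is therefore only a description of a chosen gene. Ordered by group mean, normal colon of knock-in females (49.5 ± 34.6 CPM, SD, n = 3) came before that of knock-in males (22.4 ± 7.91 CPM), and the ranges of these neighbours overlapped. Knock-in male tumours (9.42 ± 3.995 CPM) followed without overlap with either neighbour. The 4 wild-type groups, from 3.96 ± 0.856 CPM in male tumours to 1.75 ± 0.532 CPM in female normal colon, overlapped with their neighbours in the order.

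**Figure D1:**
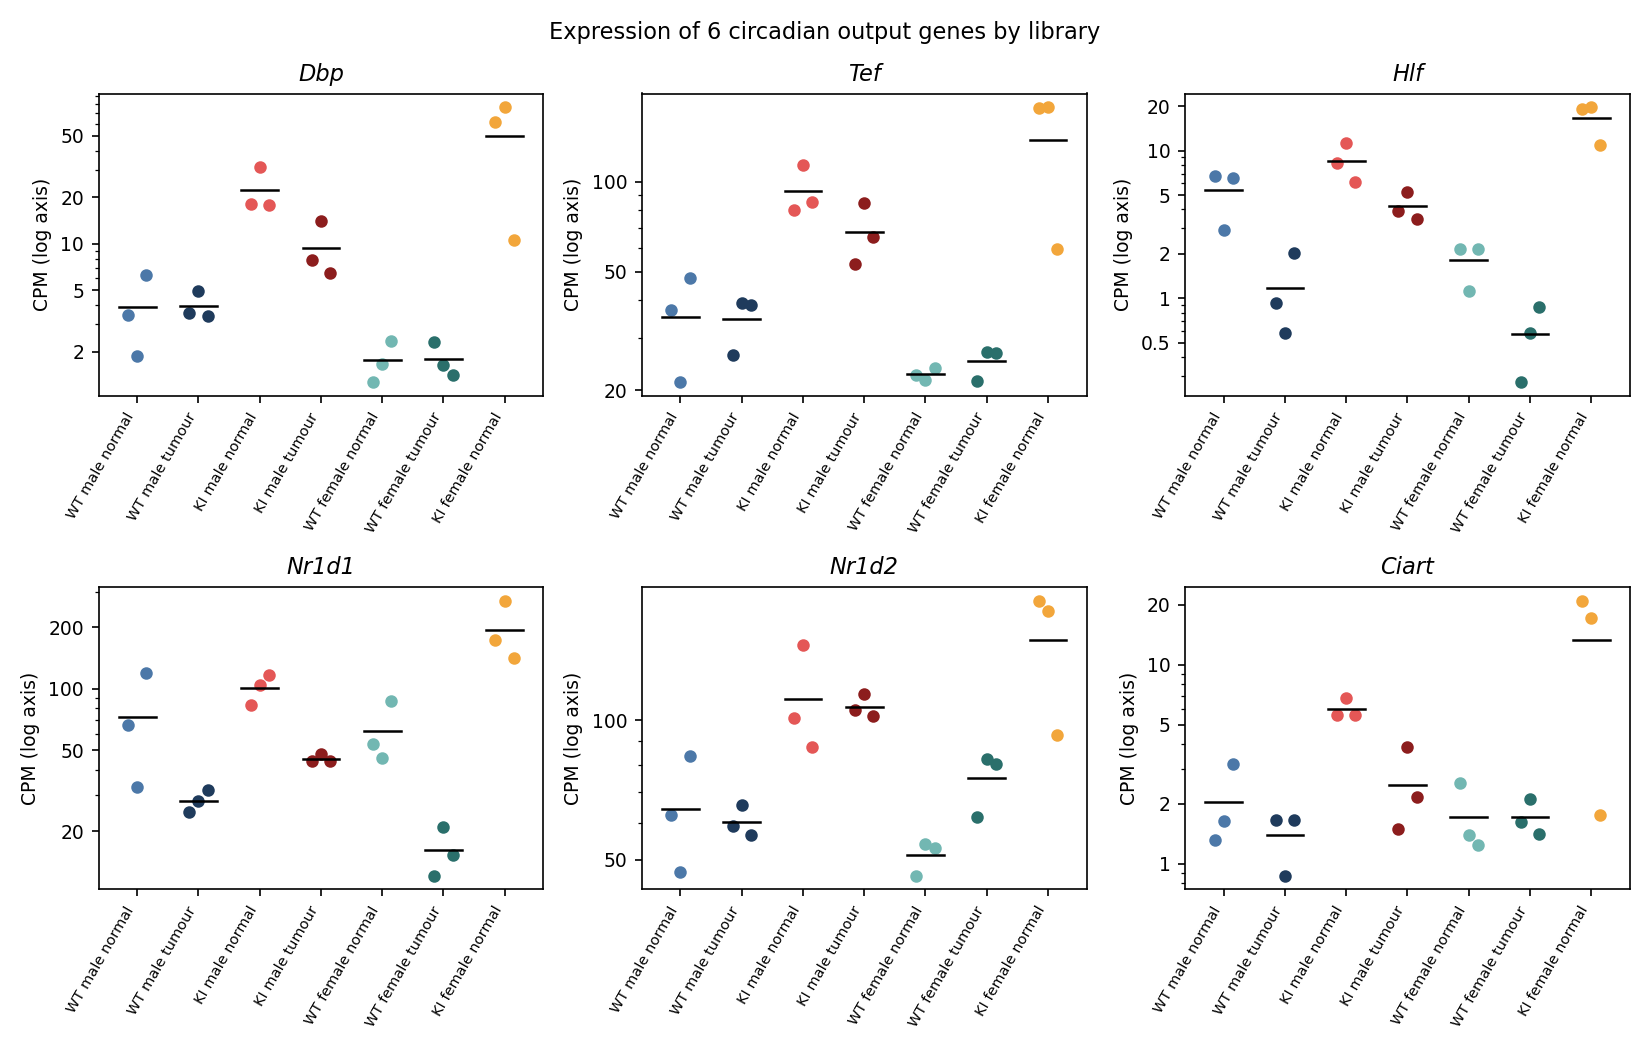
Levels of the 6 genes in CPM on log axes, with 1 point per library, 3 libraries per group and a line at each group mean; the rightmost point of knock-in (KI) female normal colon is replicate b. For Dbp the 9 knock-in libraries, from 6.46 to 76.6 CPM, all lie above the 12 wild-type (WT) libraries, which end at 6.27 CPM. The share of all tested genes that separate in this way was not computed.

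Tef, the second PAR bZIP factor, showed the same separation at a smaller size. The 12 wild-type libraries ran from 21.3 to 47.6 CPM with a median of 26.6 CPM, and the 9 knock-in libraries from 53.2 to 177 CPM with a median of 84.9 CPM. In female normal colon the wild-type libraries had 22.5, 21.6 and 23.9 CPM, and the knock-in libraries had 177 CPM in replicates 1 and a but 59.3 CPM in replicate b. No wild-type library reached the lowest knock-in library, and the share of all tested genes for which this holds was not computed. The order of the group means was the same as for Dbp among the 3 knock-in groups, and the 4 wild-type groups overlapped with their neighbours.

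Hlf was the rarest of the 6 relative to its length, at 2.48 ± 0.742 CPM per kilobase of exon in knock-in female normal colon, where Nr1d1 had 63.4 ± 21.8 CPM per kilobase. It stood at 6.76, 2.92 and 6.57 CPM in wild-type male normal colon, at 8.22, 11.3 and 6.14 CPM in knock-in male normal colon and at 2.16, 1.115 and 2.17 CPM in wild-type female normal colon. Knock-in female normal colon had 19.2, 19.7 and 10.9 CPM in replicates 1, a and b. The male groups overlapped between genotypes and the female groups did not. In that female comparison 19.6% of tested genes were higher and 18.2% lower without overlap. Tumours of wild-type mice had 0.936, 0.582 and 2.03 CPM in males and 0.272, 0.585 and 0.870 CPM in females, and tumours of knock-in males had 3.88, 5.27 and 3.43 CPM. These wild-type tumour levels rest on few reads: 13, 2 and 22 counts in males and 2, 5 and 8 counts in females, so that 1 library in each sex lay under the floor of 3 counts. By group mean, the order was knock-in female, knock-in male and wild-type male normal colon, then knock-in male tumours, each overlapping with its neighbour, and a gap set these apart from wild-type female normal colon and the wild-type tumours.

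Nr1d1 was lower in tumours. Normal colon had 66.4, 32.9 and 119.6 CPM in wild-type males, 53.3, 45.7 and 86.6 CPM in wild-type females, 82.8, 104 and 116.5 CPM in knock-in males and 173, 270.5 and 142 CPM in replicates 1, a and b of knock-in females. Tumours had 24.7, 27.9 and 31.9 CPM in wild-type males, 12.1, 20.9 and 15.2 CPM in wild-type females and 44.0, 47.6 and 43.95 CPM in knock-in males. In each sex and genotype with both tissues, every tumour library was below every normal library, and the 2 genotypes overlapped in male normal colon. Of all tested genes, 26.4% were lower in tumours without overlap in wild-type males, 28.6% in wild-type females and 17.5% in knock-in males. By group mean, knock-in female normal colon stood above the other groups without overlap, the wild-type male and then the wild-type female tumours stood below them without overlap, and the 4 groups between overlapped with their neighbours. For these steps in the order of groups, as for the gap in Hlf, the share of all tested genes was not computed.

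Nr1d2, the paralog of Nr1d1, showed no such separation of the tissues in males. The 12 wild-type libraries ran from 46.2 to 83.9 CPM for Nr1d2 and the 9 knock-in libraries from 87.6 to 181 CPM, in normal colon and tumour alike. For this separation, too, the share of all tested genes was not computed. Its group means were 111 ± 30.0 CPM in knock-in male normal colon and 107 ± 6.10 CPM in knock-in male tumours, with overlapping ranges, and 64.4 ± 18.5 and 60.5 ± 4.54 CPM in the corresponding wild-type groups. In the order of means the 3 knock-in groups came first, each overlapping with the next, and wild-type female normal colon (51.2 ± 4.32 CPM) came last, without overlap with its neighbour, wild-type male tumours.

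Ciart was low in every group but those of knock-in normal colon. Its level was 1.32, 1.65 and 3.18 CPM in wild-type male normal colon and 5.61, 6.77 and 5.62 CPM in knock-in male normal colon. Wild-type female normal colon had 2.54, 1.39 and 1.24 CPM, whereas knock-in female normal colon had 20.95, 17.2 and 1.76 CPM in replicates 1, a and b. Replicate b therefore lay within the wild-type range, and the female groups overlapped through it alone. Tumours of all 3 groups ran from 0.873 to 3.85 CPM, with the lowest value resting on 3 counts. Only the step from knock-in male normal colon to knock-in male tumours, in the order of group means, came without overlap.

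In female normal colon, all 6 genes were higher in knock-in than in wild-type mice. The log2 difference was 4.89 (SE 0.65) for Dbp, 3.16 (SE 0.42) for Hlf, 2.86 (SE 0.62) for Ciart and 2.61 (SE 0.36) for Tef. It was 1.66 (SE 0.36) for Nr1d1 and 1.54 (SE 0.24) for Nr1d2. The fit across all genes put all 6 past an adjusted p of 0.05, where 8.97% of tested genes were called higher and 7% lower, and nothing is read from that count. All 6 were also called whichever single library of these groups was left out. Without replicate b the differences were 5.38 (SE 0.45) for Dbp, 3.39 (SE 0.41) for Ciart and 2.97 (SE 0.26) for Tef, and those of the other members were also larger. Ciart alone missed the threshold in limma voom (2.15) and in a fit of only these 2 groups (2.81). In the authors' deposited table the log2 fold change for Dbp is 4.86 and for Ciart 2.91. Markers of smooth muscle, the tissue of the colon wall, also differed here: the sum of 8 markers ran from 1984 to 4593 CPM in wild-type and from 6879 to 9723 CPM in knock-in females, with none at 0, and 3 of the 8 (Actg2, Lmod1 and Acta2) rose in edgeR, 5 in DESeq2 and 7 in limma voom. Of the other marker lists, 2 of 3 endothelial, 2 of 5 fibroblast and 1 of 5 leukocyte markers rose in edgeR, and 3 of 3 mesothelial (2 in DESeq2) and 1 of 5 colon epithelium markers fell. The part of this shift in tissue make-up was not tested. In bulk RNA, fewer cells of a type and less RNA per cell cannot be told apart.

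In male normal colon the same genes were higher by less, and the 2 genotypes had overlapping muscle marker sums, from 2862 to 9728 CPM in wild-type and from 4569 to 8287 CPM in knock-in mice. The log2 difference was 2.56 (SE 0.57) for Dbp, 1.58 (SE 0.60) for Ciart, 1.40 (SE 0.34) for Tef and 0.79 (SE 0.23) for Nr1d2, all without overlap between the groups, as were 3.75% of tested genes that were higher and 3.33% that were lower. Hlf, at 0.66 (SE 0.38), and Nr1d1, at 0.48 (SE 0.35), overlapped. In edgeR's test 0 of the 6 were called, with 0.00628% of all tested genes called higher and 0.00628% lower, that is, 1 gene in each direction. At an unadjusted p below 0.05 the same test counted 4 members, DESeq2 called 1 after adjustment, which was Dbp, and limma voom called 0. By size of difference, Dbp stood at place 40 among the 15936 genes tested.

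In male tumours the difference between genotypes was largest for Hlf, with a log2 difference of 1.71 (SE 0.44), followed by Dbp at 1.31 (SE 0.59), Tef at 0.98 (SE 0.34), Nr1d2 at 0.83 (SE 0.23), Ciart at 0.76 (SE 0.65) and Nr1d1 at 0.68 (SE 0.37). Only Ciart overlapped between these groups, where 20.3% of tested genes were higher and 16.1% lower without overlap. Hlf and Nr1d2 were called higher, 2 of 6, where 9.3% of tested genes were called higher and 5.23% lower. The call for Hlf ended without wild-type male tumour replicate 1 (1.44) or 2 (1.52) or knock-in male tumour replicate 2 (1.48). It also ended in a fit of only these groups (1.69). That for Nr1d2 ended without any of 5 of the 6 libraries, at values from 0.76 to 0.88, and with late library numbers as a covariate (0.78), and held without knock-in male tumour replicate 3. Tef was called in DESeq2 (0.95) and in limma voom (1.04). The muscle marker sums were 192 to 754 CPM in wild-type and 888 to 1006 CPM in knock-in tumours, a difference in the same direction as that of the 6 genes, with 0 of 8 markers called by edgeR, 7 at an unadjusted p below 0.05, 3 called by DESeq2 and 2 by limma voom. Of the other marker lists, 1 of 5 differentiated colonocyte, 1 of 4 glial and 1 of 5 fibroblast markers rose and 1 of 5 leukocyte markers fell. The part of these was not tested.

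**Figure D2:**
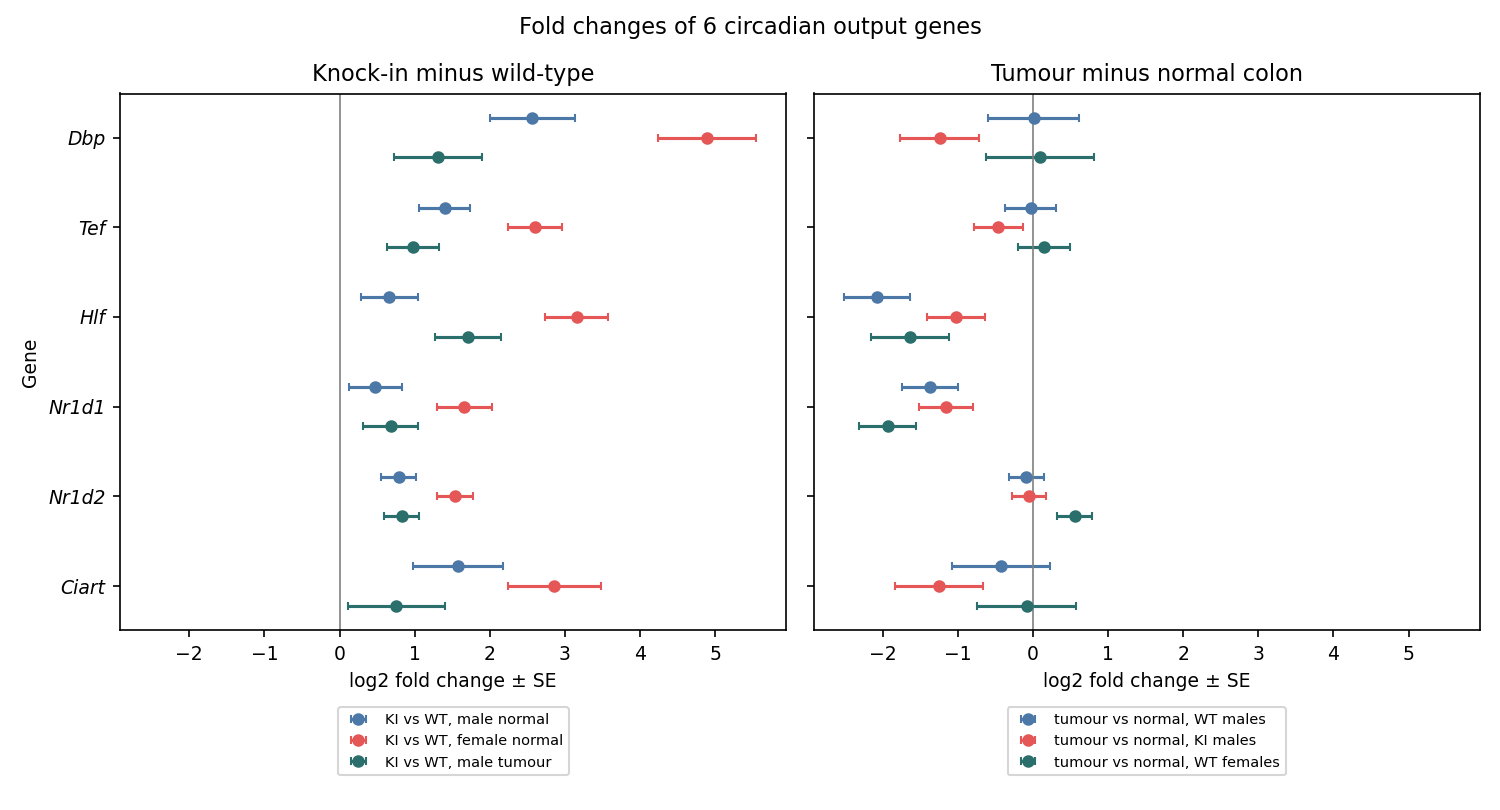
Log2 fold changes (points) with their standard errors (bars) for the 6 genes, knock-in minus wild-type on the left and tumour minus normal colon on the right. All 18 genotype differences lie above 0, from 0.48 to 4.89, while in tumours Hlf, Nr1d1 and Ciart lie below 0 in each of the 3 comparisons, Ciart at -0.09 and -0.42 in the wild type, and Dbp does so only in knock-in males, at -1.24.

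Tumours differed from normal colon in 2 of the 6 genes in a like way. In wild-type males the log2 difference was -2.07 (SE 0.44) for Hlf and -1.37 (SE 0.37) for Nr1d1, and both were called lower, where 16.5% of tested genes were called higher and 19.3% lower. Dbp (0.01, SE 0.61), Tef (-0.03, SE 0.34), Nr1d2 (-0.09, SE 0.23) and Ciart (-0.42, SE 0.66) had overlapping groups. Without wild-type male normal replicate 3, the library with the highest Nr1d1 level of its group, the difference for Nr1d1 was -0.82 and was no longer called. It was also not called in a fit of only these 2 groups (-1.38).

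In wild-type females Nr1d1 differed by -1.94 (SE 0.38) and Hlf by -1.63 (SE 0.52) between tumour and normal colon, both called lower, where 25% of tested genes were called higher and 24% lower. Nr1d2 was higher in every tumour than in every normal library, as were 29.9% of tested genes. It differed by 0.55 (SE 0.23) and was not called. It was called with library totals as the scaling (0.69) and in limma voom (0.67). The same held in a fit of only these groups (0.55) and without wild-type female tumour replicate 1 (0.67). Dbp (0.10, SE 0.72), Tef (0.15, SE 0.35) and Ciart (-0.09, SE 0.65) overlapped. The call for Hlf ended without wild-type female normal replicate 1 (-1.45), without wild-type female tumour replicate 1 (-1.33), in limma voom (-1.51) and with late library numbers as a covariate (-1.65).

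In knock-in males Ciart differed by -1.25 (SE 0.59), Dbp by -1.24 (SE 0.53) and Hlf by -1.03 (SE 0.38), each with all tumours below all normal libraries, beside Nr1d1 at -1.16 (SE 0.36). In this comparison 17.5% of tested genes were lower and 16.1% higher without overlap. Tef (-0.46, SE 0.33) and Nr1d2 (-0.06, SE 0.23) overlapped. Nr1d1 was the only member called, as lower, where 10.4% of tested genes were called higher and 9.97% lower. That call ended without any of 5 of the 6 libraries, at values from -1.24 to -1.05, and held only without knock-in male normal replicate 1; it also ended in limma voom (-1.02). Whether the tumour difference itself depends on genotype in males was fitted as an interaction, in which 0 members were called at 1.14% of tested genes higher and 0.37% lower. For Dbp that interaction was -1.25 (SE 0.80). At an unadjusted p below 0.05 edgeR counted 0 members in it, and DESeq2 and limma voom called 0.

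All 8 smooth muscle markers fell in tumours in each of the 3 comparisons, with a median log2 difference of -4.06 in wild-type males, -4.20 in wild-type females and -2.54 in knock-in males, with none of the 8 at 0 in any group. Of 5 tested markers of differentiated colonocytes, 4 fell in wild-type males, 5 in wild-type females and 4 in knock-in males, with medians of -4.95, -6.40 and -2.14. The 5 colon epithelium markers all fell in both wild-type comparisons, with medians of -0.50 in males and -0.87 in females, and 0 were called in knock-in males. Glial markers fell in 3, 1 and 1 of 4 cases and neuronal markers in 3, 2 and 1 of 5, in the same order. In wild-type females 1 neuronal marker rose, and mean neuronal marker sums were higher in tumours (42.5 against 27.8, 56.3 against 17.5 and 47.7 against 30.1 CPM). Of 5 fibroblast markers 0, 3 and 1 rose and 1, 1 and 0 fell. Of 5 leukocyte markers 1, 2 and 0 rose and 0, 1 and 1 fell. Of 3 endothelial markers 1, 2 and 0 rose and 0 fell. Of 3 mesothelial markers 1, 0 and 0 rose and 0, 2 and 0 fell. The part of any of these in the lower Hlf and Nr1d1 levels of tumours was not tested. Nr1d1 shares 263 bases of exon with Thra, a thyroid hormone receptor gene on the opposite strand, and whether counting used strand is not given in the sources used here, so reads there cannot be assigned to 1 of them. Thra fell in tumours of wild-type mice, in males by 0.79 on the log2 scale (SE 0.22, edgeR adjusted p = 0.00927) and in females by 0.96 (SE 0.22, edgeR adjusted p = 0.00154). In knock-in males it differed by -0.55 (SE 0.22, edgeR adjusted p = 0.0797). Dbp shares 539 bases of exon with Sphk2, a sphingosine kinase gene on the opposite strand. Sphk2 differed between genotypes by 0.31 (SE 0.18, edgeR adjusted p = 0.255) in female and by 0.16 (SE 0.18, edgeR adjusted p = 1) in male normal colon.

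Between the sexes, Hlf was lower in wild-type female than in wild-type male normal colon by 1.55 on the log2 scale (SE 0.42), and it was the only member called in that comparison, where 5.74% of tested genes were called higher and 10.2% lower. The call ended without wild-type male normal replicate 1 (-1.36) or wild-type female normal replicate 2 (-1.32), and in a fit of only these groups (-1.55). In this comparison 2 of 8 smooth muscle markers (median -1.14), 3 of 3 endothelial and 2 of 5 fibroblast markers also fell and 2 of 3 mesothelial markers rose, and their part in the Hlf level was not tested. In knock-in normal colon 0 members were called between females and males, at 0.182% of tested genes higher and 0.402% lower. All 6 were higher in females, from 0.42 (SE 0.23) for Nr1d2 to 1.15 (SE 0.56) for Ciart; 3 were under an unadjusted p of 0.05 in edgeR, DESeq2 called 0 and limma voom called 1, Nr1d1. Without replicate b these differences were 1.67 (SE 0.38) for Ciart, 1.62 (SE 0.37) for Dbp and 0.67 (SE 0.20) for Nr1d2, and none of the 6 was called. In wild-type tumours 0 members were called between the sexes, at 0.402% higher and 0.458% lower, with 0 under an unadjusted p of 0.05 and 0 in DESeq2 and limma voom. The sex difference in the tumour effect in wild-type mice also had 0 members called, by each tool and at an unadjusted p below 0.05, at 0.929% higher and 0.195% lower.

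The genotype difference in normal colon was larger in females for all 6 genes. The interaction was 2.49 (SE 0.56) for Hlf, 2.33 (SE 0.83) for Dbp, 1.28 (SE 0.84) for Ciart, 1.201 (SE 0.48) for Tef, 1.18 (SE 0.50) for Nr1d1 and 0.75 (SE 0.33) for Nr1d2. Hlf alone was past the threshold, which is a description here, where 1.76% of tested genes were called higher and 0.778% lower. Without replicate b of the knock-in females the interaction was 2.83 (SE 0.56) for Dbp and 1.58 (SE 0.34) for Tef, and both were then called beside Hlf (2.74). Over all 21 libraries the smooth muscle markers had a median interaction of 1.59. Of these 8, edgeR called 0, with 5 at an unadjusted p below 0.05, DESeq2 called 2 and limma voom 1. In edgeR 1 of 3 endothelial markers was called higher and 2 of 3 mesothelial markers lower. The part of these in the interaction was not tested.

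The genes of the clock loop were set beside these outputs from a list of 21, all of which were tested. In female normal colon 6 rose and 5 fell in knock-in mice, where 8.97% of all tested genes were called higher and 7% lower. The median log2 difference was 0.19 over the list against 0.02 over all tested genes. Per1 rose by 1.78 (SE 0.33, edgeR adjusted p = 0.00221), Per3 by 1.40 (SE 0.30, edgeR adjusted p = 0.00544) and Cry2 by 1.21 (SE 0.26, edgeR adjusted p = 0.00462), all of them repressors of the loop. Cry1, a repressor of the loop that peaks later than the Per genes, fell by 1.51 on the log2 scale (SE 0.21, edgeR adjusted p = 0.000187). Of the activators, Arntl fell by 1.34 (SE 0.39, edgeR adjusted p = 0.0276) and Npas2 by 1.04 (SE 0.30, edgeR adjusted p = 0.0247). Nfil3, whose protein binds D-boxes as a repressor in competition with the PAR bZIP factors, fell by 1.39 (SE 0.43, edgeR adjusted p = 0.0374). The count of 11 fell to between 4 and 10 when single libraries were left out. It was 6 without wild-type female normal replicate 1, 4 without replicate 2 of that group, and 5 without either of replicates 1 and a of the knock-in females. Per1, Per3, Cry1 and Cry2 passed in all 6 of these fits.

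Replicate b of the knock-in females differed from replicates 1 and a in the activators as well as in Dbp. Arntl stood at 69.7 CPM in replicate b and at 16.5 and 19.7 CPM in replicates 1 and a, against 78.4 to 100.4 CPM in wild-type female normal colon. Npas2 stood at 75.8 CPM in replicate b and at 25.0 and 36.4 CPM in replicates 1 and a. In that library, therefore, Arntl and Npas2 lay near the wild-type level while Dbp lay above it. Without replicate b, Arntl fell by 2.31 (SE 0.24, edgeR adjusted p = 4.04e-05) and Npas2 by 1.61 (SE 0.24, edgeR adjusted p = 0.000658) in knock-in females, and 10 of the 21 genes of the loop passed. Cry1 did not set replicate b apart, with 16.2 CPM there and 20.4 and 17.5 CPM in replicates 1 and a.

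The difference of Dbp and Arntl within each library, on the log2 CPM scale, needs no scaling between libraries. It ran from -6.13 to -4.98 in wild-type female and from -4.93 to -3.60 in wild-type male normal colon. In knock-in normal colon it ran from -0.87 to 0.57 in males and was 1.89, 1.95 and -2.71 in replicates 1, a and b of females. All 6 knock-in normal libraries were above all 6 wild-type normal libraries in this measure. It contains Dbp, whose levels already separated these libraries, so it is a description and not separate support. The share of other gene pairs that separate in this way was not computed. Wild-type tumours lay between -4.11 and -2.03 and knock-in male tumours between -1.54 and -0.55, without overlap.

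**Figure D3:**
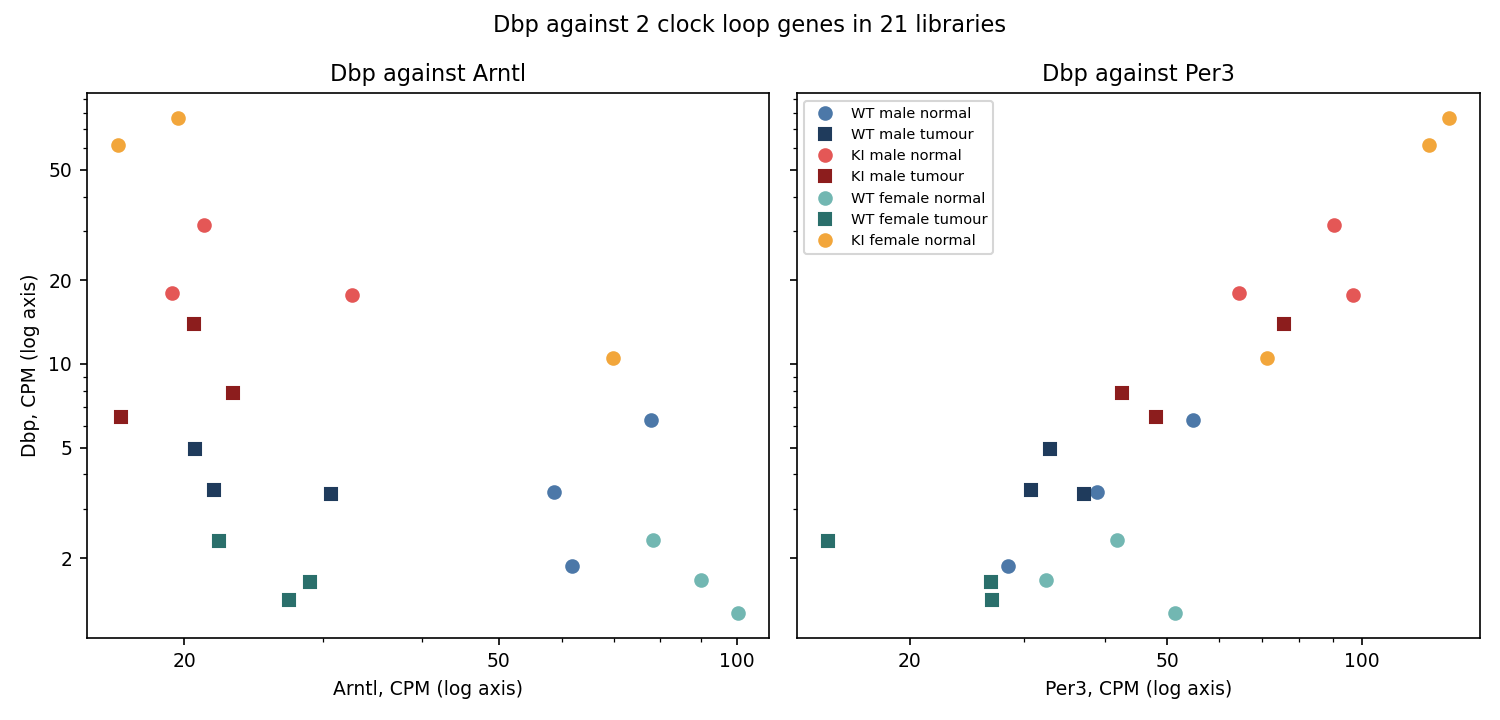
Dbp in CPM against Arntl (left) and against Per3 (right) in 21 libraries, on log axes; circles are normal colon, squares are tumours, and colours are the groups. Wild-type normal colon has Arntl at 58.6 CPM or more with Dbp at 6.27 CPM or less, 5 of 6 knock-in normal libraries have Arntl under 33 CPM with Dbp at 17.7 CPM or more, and the remaining one is replicate b (Arntl 69.7 CPM, Dbp 10.5 CPM).

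In male normal colon edgeR called 0 of the 21 loop genes between genotypes, and 2 of all 15936 tested genes. At an unadjusted p below 0.05 it counted 7 of the list and 532 of all tested genes. DESeq2 called 1 of the list and limma voom called 0. Arntl stood at 58.6, 61.9 and 77.8 CPM in wild-type and at 19.3, 21.2 and 32.6 CPM in knock-in males, a log2 difference of -1.44 (SE 0.39, edgeR adjusted p = 1). Npas2 differed by -1.28 (SE 0.30), Cry1 by -0.72 (SE 0.20), Per2 by 1.12 (SE 0.35) and Per3 by 1.05 (SE 0.30), each without overlap and with an edgeR adjusted p of 1. Arntl and these genes were picked from the list after their values were seen. Of all tested genes, 3.75% were higher and 3.33% lower without overlap in male normal colon. How many of the 21 loop genes did so is not given here. In male tumours 2 of the list rose and 1 fell in knock-in mice, where 9.3% of all tested genes were called higher and 5.23% lower. The counts over the list are therefore not a result about the clock. Clock was among those that rose, by 0.58 (SE 0.15). Csnk1e, a kinase gene of the PER proteins, fell by 0.90 (SE 0.26). The edgeR adjusted p-values of Clock and Csnk1e were 0.0228 and 0.032; DESeq2 and limma voom each called 5 of the list, and in edgeR 0 of the 21 passed when wild-type male tumour replicate 1, 2 or 3 or knock-in male tumour replicate 2 was left out.

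In male tumours the genotypes did not separate in Arntl as they did in Dbp. The Arntl level in tumours was 21.8, 20.7 and 30.7 CPM in wild-type males and 23.1, 20.6 and 16.6 CPM in knock-in males, and these ranges overlapped (edgeR adjusted p = 0.643). Relative to normal colon, Arntl fell by 1.42 (SE 0.40, edgeR adjusted p = 0.0108) in males and by 1.78 (SE 0.40, edgeR adjusted p = 0.00143) in females of the wild type. Of the loop list, 3 rose and 4 fell in tumours of wild-type males, 5 rose and 7 fell in those of wild-type females, and 1 rose and 1 fell in those of knock-in males. Of all tested genes, 16.5% were called higher and 19.3% lower in the first, 25% and 24% in the second and 10.4% and 9.97% in the third, so the counts over the list are not a result about the clock. Arntl2, a paralog of Arntl, rose in each of the 3, with edgeR adjusted p-values of 0.00879 or less. Its log2 difference was 1.60 in wild-type males, 2.84 in wild-type females and 1.09 in knock-in males.

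**Figure D4:**
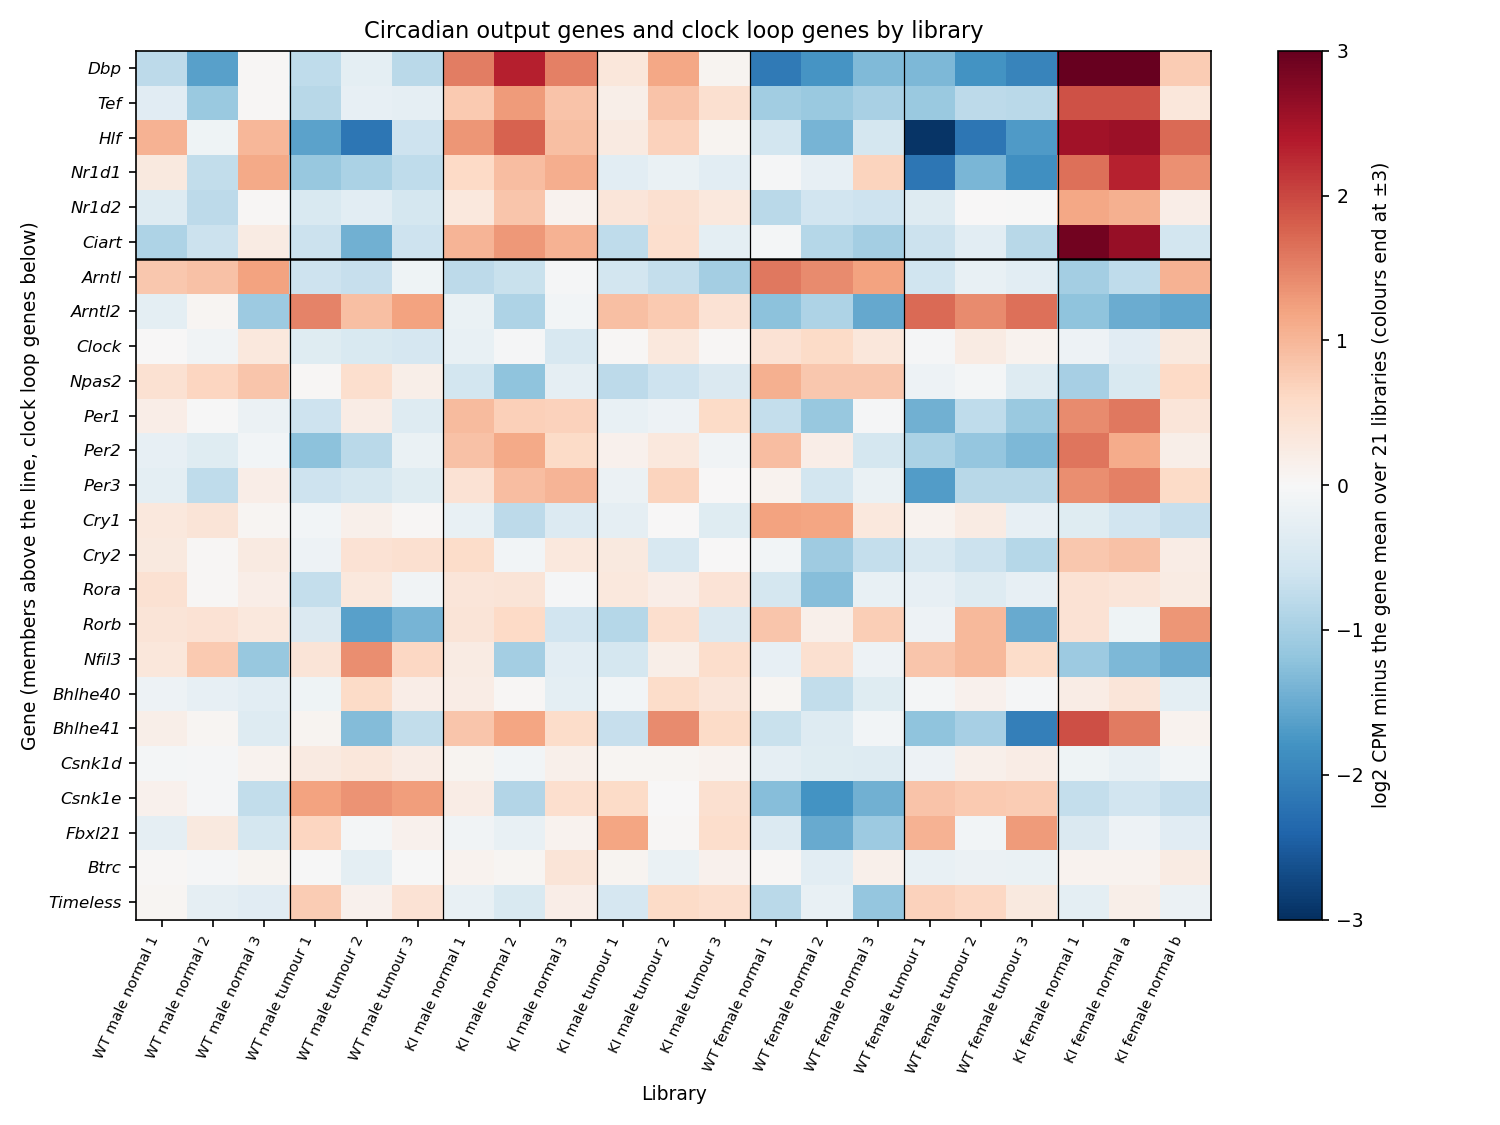
Log2 CPM of the 6 genes (above the line) and of clock loop genes (below it), each minus its own mean over 21 libraries, with libraries as columns in groups of 3. Replicate b of knock-in female normal colon, the rightmost column, is light red for Arntl, Npas2 and Dbp and pale for Tef and Ciart. In replicates 1 and a beside it, Arntl and Npas2 are blue and Dbp, Tef and Ciart are strongly red.

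Of 8 known targets of the PAR bZIP factors, 5 passed the filter on low counts and were tested, and Gys2, Cyp2a5 and Cyp7a1 did not pass it. In knock-in female normal colon 2 rose and none fell, where 8.97% of all tested genes were called higher and 7% lower. Pdxk, the pyridoxal kinase gene, rose by 0.93 (SE 0.18, edgeR adjusted p = 0.00211). Por, the cytochrome P450 reductase gene, rose by 0.62 (SE 0.17, edgeR adjusted p = 0.0193). Por was not called without wild-type female normal replicate 1 (0.48) or knock-in female normal replicate a (0.46). In male normal colon edgeR called 0 of the 5, and 2 of all 15936 tested genes. The list had 0 at an unadjusted p below 0.05, and DESeq2 and limma voom called 0. In knock-in male tumours Ppara rose by 1.07 (SE 0.28, edgeR adjusted p = 0.022). Pdxk fell by 0.60 (SE 0.17, edgeR adjusted p = 0.0305), the opposite direction to female normal colon. Of all tested genes, 9.3% were called higher and 5.23% lower in male tumours. Neither call held without wild-type male tumour replicate 1 or 2 or knock-in male tumour replicate 2. The call for Pdxk also ended without replicate 3 of either tumour group, and that for Ppara without knock-in male tumour replicate 1. Both wild-type tumour comparisons had Pdxk higher, by 0.70 in males and 1.22 in females, and Ppara lower, with log2 differences of -1.70 and -1.92 and edgeR adjusted p-values of 0.00455 or less.

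Of 10 genes known to be repressed by the REV-ERB proteins, 9 were tested, and 5 fell and none rose in knock-in female normal colon. Of all tested genes, 7% were called lower and 8.97% higher there. All 5 (Arntl, Clock, Npas2, Cry1 and Nfil3) are shared with the clock loop list, and the 4 that are not shared did not pass. The median log2 difference over the 9 was -0.50, and the count was 1, Cry1, without any of wild-type female normal replicates 1 and 2 and knock-in female normal replicates 1 and a. In male normal colon edgeR called 0 of the 9, with 3 at an unadjusted p below 0.05, 1 called by DESeq2 and 0 by limma voom. Of all 15936 tested genes edgeR called 2, with 532 at an unadjusted p below 0.05. In male tumours 1 rose in knock-in mice, which was Clock. There 9.3% of all tested genes were called higher and 5.23% lower, so this count is not a result about the list. Against normal colon, 2 of the 9 fell and 0 rose in wild-type male tumours, where 19.3% of tested genes were called lower and 16.5% higher. In wild-type female tumours 5 fell and 1 rose (median -0.65), where 24% were called lower and 25% higher. In knock-in male tumours 0 were called, where 9.97% were called lower and 10.4% higher.

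Of 8 other genes with a known daily rhythm, 4 rose and 1 fell in knock-in female normal colon. Of all tested genes, 8.97% were called higher and 7% lower there. Wee1, a kinase that holds back mitosis, rose by 1.03 (SE 0.18, edgeR adjusted p = 0.00116), Tspan4 by 1.10 (SE 0.22, edgeR adjusted p = 0.00265) and Usp2, a ubiquitin-specific protease gene, by 1.01 (SE 0.25, edgeR adjusted p = 0.0104). Tsc22d3 rose by 0.78 (SE 0.26, edgeR adjusted p = 0.049) and Lonrf3 fell by 0.69 (SE 0.19, edgeR adjusted p = 0.0208). The count of 5 was 2 without wild-type female normal replicate 1 or knock-in female normal replicate 1 and 3 without knock-in female normal replicate a; Usp2 was not called in the first pair of these, and Wee1 and Tspan4 were called throughout. Without replicate b the counts were 5 for this list, 2 for the PAR bZIP targets and 4 for the genes repressed by the REV-ERB proteins. In male normal colon edgeR called 0 of the 8, with 2 at an unadjusted p below 0.05 and 0 by DESeq2 and limma voom. Of all 15936 tested genes edgeR called 2, with 532 at an unadjusted p below 0.05. In male tumours 3 rose in knock-in mice, where 9.3% of all tested genes were called higher and 5.23% lower. They were Fkbp5 (1.16), Tsc22d3 (1.11) and Lonrf3 (0.66), with edgeR adjusted p-values of 0.0177, 0.0163 and 0.033. Lonrf3 thus went the opposite way in knock-in female normal colon. Of these, 0 were left without wild-type male tumour replicate 1, and 1 without wild-type male tumour replicate 3 or knock-in male tumour replicate 1 or 2. In tumours Usp2 fell by 1.34 in wild-type males, by 1.48 in wild-type females and by 1.19 in knock-in males, with edgeR adjusted p-values of 0.000814, 0.000147 and 0.00486. Fkbp5, a glucocorticoid target, also fell in the 3 tumour comparisons, by 1.85, 2.30 and 1.40 in the same order.

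The genes whose levels were most like those of Dbp were ranked by Pearson correlation of log2 CPM over the 21 libraries. They were Tef (r = 0.977), Nr1d2 (0.890), Per3 (0.875), Agt (0.874), Per1 (0.867), Ciart (0.853), Sv2a (0.818) and Hlf (0.816), so 4 of the 8 are members. By Spearman's rho only Tef (0.917) and Nr1d2 (0.848) were among the first 8, with Hlf at place 20 (0.797) and Ciart at place 307 (0.657). Nr1d1 came at place 37 of 15935 genes, at 0.757. The most opposite were Ypel2 (-0.872), Snora23 (-0.844), Wdfy1 (-0.840) and Plagl2 (-0.835). Because the genotypes form separate clusters for Dbp, these values largely order libraries by genotype, and they are given as a description. Over the 9 knock-in libraries alone, r with Dbp was 0.970 for Tef, 0.962 for Ciart, 0.899 for Hlf, 0.851 for Nr1d2 and 0.824 for Nr1d1. Over the 12 wild-type libraries it was 0.827 for Tef, and between -0.04 and 0.36 for the other members. Deviations from the group means, which remove the differences between groups, gave 0.880 for Tef, 0.832 for Nr1d2, 0.751 for Ciart, 0.588 for Nr1d1 and 0.398 for Hlf. These values lean on knock-in female normal colon, the group with replicate b. There the SD of log2 CPM was 1.56 for Dbp and 1.92 for Ciart. In the other groups it was at most 0.83 for Dbp and 0.64 for Ciart. Replicate b also enters the values over the knock-in libraries, and no correlation was computed without it.

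By Pearson correlation over the 21 libraries, the genes nearest to Nr1d2, Ciart and Tef were mostly those nearest to Dbp, whereas those nearest to Hlf and Nr1d1 were others. Nr1d2 was nearest to Tef (0.923), Dbp (0.890) and Agt (0.838), and Ciart to Dbp (0.853), Tef (0.849) and Per3 (0.829). Tef was nearest to Dbp, Nr1d2 (0.923) and Per3 (0.894). Hlf was nearest to Pck2 (0.954), Evc2 (0.946) and Cys1 (0.945), with Nr1d1 at place 29 (0.908) and Dbp at place 343. Nr1d1 was nearest to Rxra (0.948), Klf9 (0.941) and Ppp1r14a (0.932), with Hlf at place 57 and Dbp at place 1366. This split depended on the measure. By Spearman's rho Ciart was nearest to Mpdu1 (0.851), Rufy1 (0.816) and Rp9 (0.787), with Dbp at place 53. Over the 12 normal libraries alone, by Pearson correlation, Dbp stood at place 29 for Hlf and at place 33 for Nr1d1. Hlf and Nr1d1 are also the members whose tumour libraries all lay below the normal libraries in each of the 3 comparisons. The share of all tested genes that did so in all 3 was not computed.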

How the data were processed

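Total colon RNA was depleted of ribosomal RNA and sequenced from random-primed cDNA, per the labels' protocols. The deposited table holds raw counts per gene, made by the authors; the submitters' processing notes name Trimmomatic, HISAT2, featureCounts, DESeq2 and the build mm10. Strand setting and annotation are not given in the sources used here. The authors' deposited log2 fold changes were used only where named. Gene positions and exon lengths are from GENCODE M21 (GRCm38).

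The main test was edgeR's two-sided quasi-likelihood F test (edgeR 4.0.16, R 4.3.3) on the counts of all 21 libraries, with TMM scaling, filterByExpr by group (15936 genes), robust dispersions and 1 coefficient per group. There were 9 comparisons and 3 interactions, with p-values adjusted by Benjamini-Hochberg over these genes and called under 0.05. Standard errors come from the fold change and the F statistic; log2 CPM used a prior count of 2. Alternatives were DESeq2 1.42.0, limma voom (limma 3.58.1), other scalings and filters, only the compared groups, a replicate block, library numbers of 152 and above as a covariate, and leaving out each library. The code was tested on simulated data. Depth ran from 3414123 to 26174008 counts, and 0 per-sample columns were left out. Replicates of a group differed by more than sampling noise (chi-square per degree of freedom of 6.36 or more).

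Some genes of the clock loop list are counted but not reported here by name. The members and lists were chosen with earlier results of these data known. By the naming rule all members were described in each group; list genes past the threshold were named up to 8 per list; and the 8 genes most like and 4 least like Dbp, and the 3 most like each other member, were named. Male list values named without a call (Arntl, Npas2, Cry1, Per2 and Per3) and the genes overlapping members were chosen after their values were seen, as was the leaving out of libraries for the lists. Replicate numbers come from the labels, which do not say that they mark a shared animal; for tumour against normal colon in wild-type males, all 3 same-number correlations of deviations were over 0.1 (0.169 to 0.215), and there the block left the count of members called at 2.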

Additional observations from a re-analysis of the deposited data

Results flagged for a closer look

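For Hlf, the difference between knock-in and wild-type normal colon was larger in females than in males. The interaction term was 2.49 on the log2 scale (SE 0.56). In normal colon, genotype and library numbering cannot be told apart, and the labels do not give the hour at which tissue was taken. The median interaction of the smooth muscle markers was 1.59, with 0 of 8 called by edgeR, and their part was not tested. Hlf was higher in knock-in than in wild-type colon by 3.16 in females and by 0.66 in males, and in wild-type normal colon it was lower in females than in males. The interaction was no longer past the threshold without any 1 of 6 of the 12 libraries, at values from 2.27 to 2.68: wild-type male normal replicate 1 or 3, knock-in male normal replicate 3, wild-type female normal replicate 1 or 2, or knock-in female normal replicate a. Hlf is 1 of the 6 genes chosen with these levels known, so the value is a description that supports nothing by itself.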

How the results depend on the processing

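No member fold change with a call turned its direction under any alternative run. Of the fold changes of members under alternatives other than leaving out a library, 602 kept their direction and side of the threshold where called, 17 gained and 9 lost the threshold; with a library left out these were 512, 4 and 24. With DESeq2 the members past the threshold were 1 for knock-in against wild-type male normal colon, 2 for tumour against normal colon in knock-in males and 2 for the genotype effect by sex. With limma voom they were 1 for females against males in knock-in normal colon and 0 for tumours in knock-in males. A mean of at least 50 counts gave 2 for tumours in knock-in males. A fit of only the compared groups gave 0 for females against males in wild-type normal colon, 1 for wild-type tumours and 1 for tumour against normal colon in wild-type males. Library numbers of 152 and above as a covariate gave 1 for knock-in against wild-type male tumours and 1 for tumours in wild-type females. With the replicate block, fitted on 18 libraries, the count was 3 in place of 1 for tumours in knock-in males, where Dbp (-1.29) and Ciart (-1.32) were added; same-numbered samples there share only a number. It also added Nr1d2 for tumours in wild-type females (0.54) and Tef for knock-in against wild-type male tumours (0.93), for a count of 3 in place of 2 in each, and changed no other count; the block could not be fitted for knock-in females, whose columns share a name.

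Leaving out single libraries gave 0 to 3 members for the genotype effect by sex, 0 to 2 for knock-in against wild-type male tumours, 0 to 1 for tumours in knock-in males, 1 to 2 for tumours in wild-type females, 1 to 2 in wild-type males, 0 to 1 for the sexes in wild-type normal colon, and 6 throughout for knock-in against wild-type female normal colon. Spearman in place of Pearson correlation kept 4 of the 8 genes most like Dbp, and 2 in place of 4 members among them. Depth limits Hlf and Ciart in wild-type tumours, where single libraries held 2 or 3 counts.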
